A study of Mus musculus with 6 samples.

Results

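The genes described here are 9 inhibitors of receptor tyrosine kinase and ERK signalling: the Sprouty genes Spry1, Spry2, Spry3 and Spry4, the Spred genes Spred1, Spred2 and Spred3, Il17rd (SEF) and Phlda1. They were chosen by symbol, with earlier results of these data known, and all 9 were found among the 25899 genes of the count table. Nascent transcripts were sequenced from E14tg2a cells, an embryonic stem cell line of 129SV mice, with a stable cRAF-ErT2 cassette. It encodes a RAF kinase fusion that 4-hydroxytamoxifen (4OHT) switches on to activate ERK. All cells were kept in serum and LIF, with 2 µM CHIR99021, a GSK3 inhibitor, until 24 h before treatment and then with 250 nM PD173074, an FGF receptor inhibitor, in its place. After that, cells either stayed untreated or received 250 nM 4OHT for 2 h, and 5 mM ethynyl uridine marked the RNA made in the last 15 min, which was captured and sequenced. The 3 clones, named a, b and c, gave 1 untreated and 1 treated library each, so each group holds 3 libraries. No library analysed here came from cells without the cassette or from cells given the solvent alone, so effects of 4OHT itself and of the kinase cannot be told apart. In such bulk libraries fewer cells of a type and less RNA per cell cannot be told apart either.

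ERK signalling runs from an activated receptor through the adaptor GRB2, the exchange factor SOS and RAS to the kinases RAF, MEK and ERK. ERK in turn raises transcription of genes whose proteins damp the same route. Sprouty proteins carry a cysteine-rich C-terminal domain and hinder the step from receptor to RAS or RAF. Spred proteins share that domain, add an N-terminal EVH1 domain, and bring the RAS GTPase-activating protein neurofibromin to the membrane. SEF is a transmembrane protein that acts on FGF receptors and on the cascade below them. PHLDA1 is a pleckstrin homology-like domain protein that restrains receptor tyrosine kinases. In embryonic stem cells FGF4 feeds this pathway and pushes cells towards differentiation.

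Totals were 9745747 to 12168380 counts in untreated and 7295334 to 9431819 in treated libraries. A gene with no count could still have a level of up to 3 counts, which stands at 0.247 to 0.411 CPM (counts relative to the library total). CPM of genes are scaled by TMM, a method that balances libraries on most of their genes, and errors are SD over 3 libraries for CPM and SE for log2 fold changes. Stem cell markers were present: the 10 listed summed to 2964 to 3095 CPM untreated and 2192 to 2591 CPM after 4OHT. The sum hides changes in both directions. Of the 10, 3 were higher and 6 lower (edgeR adjusted p below 0.05), with a median log2 fold change of -0.91. Over all tested genes 28.5% were higher and 28.6% lower. Among the 10, Nanog (317 and 100 CPM on average) and Esrrb (654 and 261) fell, while Zfp42 (641 and 1020) rose. The 10 fibroblast and feeder markers summed to 2.96 to 4.02 CPM and 21.4 to 26.5 CPM, with Lum and Postn at 0 in all libraries. Twist1 (0.499 and 18.1 CPM on average) and Col1a1 (0.259 and 2.91) were higher, and Pdgfrb fell (1.69 and 0.893). The 9 primitive endoderm markers summed to 47.1 to 57.1 CPM and 26.3 to 26.7 CPM, with Dab2 lower (37.8 and 9.89 on average) and Cubn higher (3.11 and 5.93). The 9 trophoblast markers summed to 204 to 211 CPM and 299.9 to 427 CPM, but not all went the same way. Of the 7 tested, 4 were higher: Tead4 (75.7 and 188 on average), Krt8 (15.0 and 55.7), Krt18 (9.37 and 32.7) and Hand1 (0.428 and 2.28). Tfap2c was lower (80.3 and 48.6), Eomes and Gata3 did not pass the test, and Cdx2 and Elf5 were too low to test. The part of such cells in the changes below was not tested.

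Of the 9 genes, 8 had enough counts to test. Spry2, Spry4, Spred1, Spred3, Il17rd and Phlda1 rose after 4OHT, Spry1 and Spred2 did not pass the test, and Spry3 was too low to test. Thus 6 of 8 were higher, while 28.5% of the 13869 genes tested were higher and 28.6% lower (edgeR quasi-likelihood test, Benjamini-Hochberg adjusted p below 0.05). With clone as a replicate block, 7 of the 8 were higher by edgeR and by DESeq2, Spred2 being added. Scaling by library size alone shifts all log2 fold changes by a median of -0.20 and gives 2407 higher and 5684 lower genes, against 3953 and 3968. None of the 8 was lower by edgeR, DESeq2 or limma-voom, and 0 were lower at an unadjusted p below 0.05 in edgeR. The median log2 fold change of the 8 was 1.65, beside -0.00054 over all tested genes. All 6 genes that rose did so in each of the 3 clones. Since they were called from these same libraries, this adds no separate support, and the share among all higher genes was not counted.

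**Figure D1:**
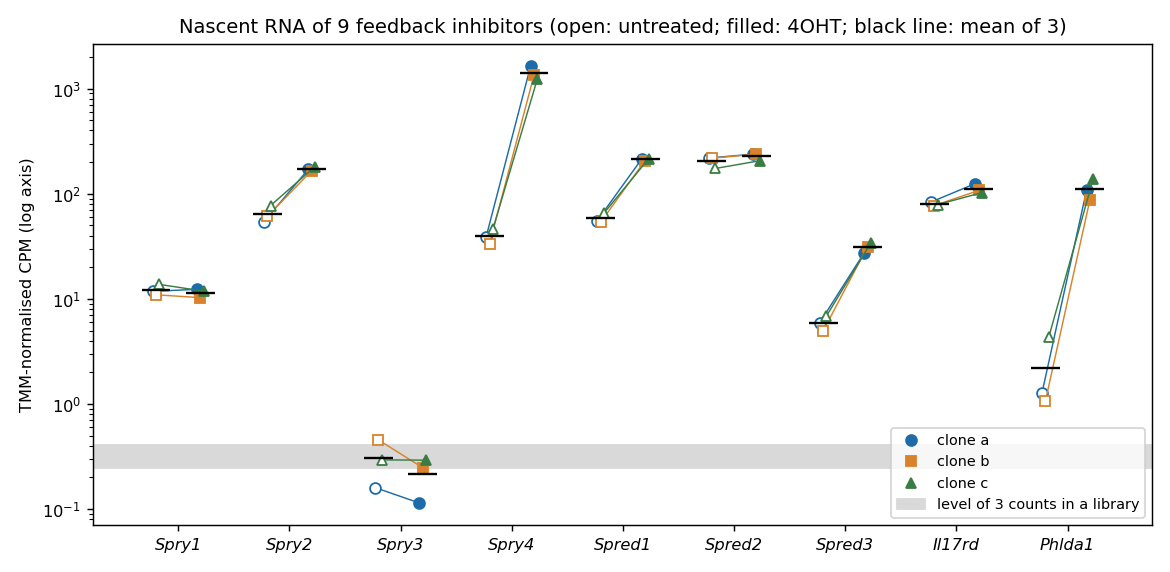
TMM-normalised CPM (log axis) of each gene in the 6 libraries, with untreated libraries as open and treated ones as filled symbols, thin lines joining the libraries of a clone and black lines at group means. Spry4 and Phlda1 climb the most, Spry1 and Spred2 stay within overlapping ranges, and Spry3 lies at or near the level of 3 counts (grey band).

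Spry4, the Sprouty with the largest response, was read at 39.1, 33.5 and 46.1 CPM in the untreated libraries of clones a, b and c, and at 1646, 1341 and 1232 CPM in the treated ones. Every treated library was far above every untreated one. The log2 fold change was 5.16 ± 0.15 (edgeR adjusted p = 1.1e-08), a 35.7-fold rise, and 25 of all tested genes, counting from the top, rose by more, which put Spry4 at rank 26. The values rest on 1399 counts untreated and 33683 after 4OHT. Spry4 spans 15169 bases on chromosome 18 (38586247 to 38601415, minus strand, GRCm38). The nearest patterns over the 6 libraries were sought among tested genes whose log2 CPM averaged 2 or more. The other inhibitors and provisional gene names, such as those with Gm or Rik, were left out. Nab1, Fos and Nab2 were nearest. Their distances in centred log2 CPM were 0.257, 0.434 and 0.529, and their own log2 fold changes 5.15, 4.98 and 5.48. Fos is an AP-1 subunit, and Nab1 and Nab2 encode corepressors of EGR factors. Nab2 shares part of its span with Stat6 and Nemp1.

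Spry2, a close relative of Spry4 that is also known as an ERK target, rose far less. In the same order of clones it stood at 54.2, 60.7 and 77.1 CPM untreated, against 171, 165 and 181 CPM with 4OHT. The groups did not overlap, and the log2 fold change was 1.43 ± 0.11 (edgeR adjusted p = 3.6e-06), 2.70-fold. Its nearest patterns were those of Lck, Chrnb1 and Pdlim7, at distances of 0.131, 0.154 and 0.162. Spry1 was read at 11.8, 10.9 and 13.7 CPM untreated and at 12.3, 10.3 and 11.8 CPM after 4OHT. The groups overlapped and the log2 fold change of -0.07 ± 0.14 did not pass the test (edgeR adjusted p = 0.66, 0.10 to 0.998 over the alternatives). Its value had no firm sign, since it was 0.00063 without the untreated library of clone c and 0.0035 without the treated library of clone b. Spry3 had 2, 6 and 3 counts in the untreated libraries and 1, 2 and 2 in the treated ones. That is 0.303 ± 0.148 and 0.218 ± 0.0926 CPM, about the level of 3 counts, so no fold is given and a change was not detectable at this depth.

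The bases before the start sites of Spry2 and Spry1, Sprouty genes that differ in their response, are set side by side. Those of Spred3, a Spred gene that rose and whose window held a motif match, are shown too. The sequences are from RefSeq (GRCm38.p6), 250 bases each, 5′ to 3′ on the gene's strand and ending at the base before the start. They lie at chr14:105896820-105897069 on the minus strand, chr3:37639697-37639946 on the plus strand and chr7:29168648-29168897 on the minus strand. Capitals mark matches to the searched motifs named after the sequences.
Spry2: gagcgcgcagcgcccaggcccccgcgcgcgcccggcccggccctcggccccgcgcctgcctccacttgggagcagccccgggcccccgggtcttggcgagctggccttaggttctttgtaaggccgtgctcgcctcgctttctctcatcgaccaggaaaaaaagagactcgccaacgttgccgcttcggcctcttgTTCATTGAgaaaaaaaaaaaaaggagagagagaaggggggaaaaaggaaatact
Spry1: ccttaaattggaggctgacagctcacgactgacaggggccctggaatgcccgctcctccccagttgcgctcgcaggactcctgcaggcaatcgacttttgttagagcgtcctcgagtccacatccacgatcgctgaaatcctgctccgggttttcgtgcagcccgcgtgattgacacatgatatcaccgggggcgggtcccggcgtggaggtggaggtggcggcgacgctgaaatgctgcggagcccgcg
Spred3: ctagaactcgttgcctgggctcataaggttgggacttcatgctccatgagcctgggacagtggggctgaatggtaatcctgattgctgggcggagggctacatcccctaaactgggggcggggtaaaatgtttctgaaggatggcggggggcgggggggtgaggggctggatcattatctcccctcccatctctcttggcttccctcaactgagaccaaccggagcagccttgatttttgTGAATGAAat

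The motifs searched on both strands were an ETS core CCGGAA, the AP-1 site TGANTCA, the CRE site TGACGTCA, the CArG box bound by SRF, and the Capicua octamers TGAATGAA, TGAATGGA, TCAATGAA and TCAATGGA. Capicua is a repressor that ERK relieves. RefSeq windows were matched for 6 of the 9 genes: Spry1, Spry2, Spred1, Spred2, Spred3 and Il17rd. The Spry2 window held TCAATGAA on the opposite strand, printed as TTCATTGA, 54 to 47 bases before the start. The Spred3 window held TGAATGAA, 10 to 3 bases before the start. Windows of Spry1, Spred1, Spred2 and Il17rd held none of these motifs, although Spred1 and Il17rd also rose. Over 32851 windows of this length, 0.642% held TCAATGAA and 1.08% held TGAATGAA, against 12.0% for CCGGAA, 6.75% for TGANTCA, 1.55% for TGACGTCA and 1.47% for the CArG box. Shares for TGAATGGA and TCAATGGA were 1.01% and 0.521%. A match describes these letters only, and Spred3 has a further start upstream in GENCODE. Both Sprouty windows were 62.4% G and C with 23 CpG dinucleotides, above the medians of 52.4% and 6 over all windows.

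The Sprouty genes as a family gave 105, 106 and 137 CPM in the untreated libraries of clones a, b and c, and 1829, 1517 and 1426 CPM in the treated ones, 13.7 times as much. Their make-up turned from mostly Spry2 to mostly Spry4 reads. Spry2 held 55.1% ± 3.17 of Sprouty reads untreated and 11.0% ± 1.69 after 4OHT (SD, n = 3). Spry4 went from 34.1% ± 2.78 to 88.3% ± 1.78. Spry1 went from 10.5% ± 0.614 to 0.727% ± 0.0892, although its own CPM overlapped between groups. Shares within a library do not depend on how libraries are scaled, but longer genes yield more reads. With 3 against 3 libraries a two-sided exact permutation test cannot go below p = 0.10, and each of the 7 shares tested in both families gave that value (0.10 after Benjamini-Hochberg adjustment).

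**Figure D2:**
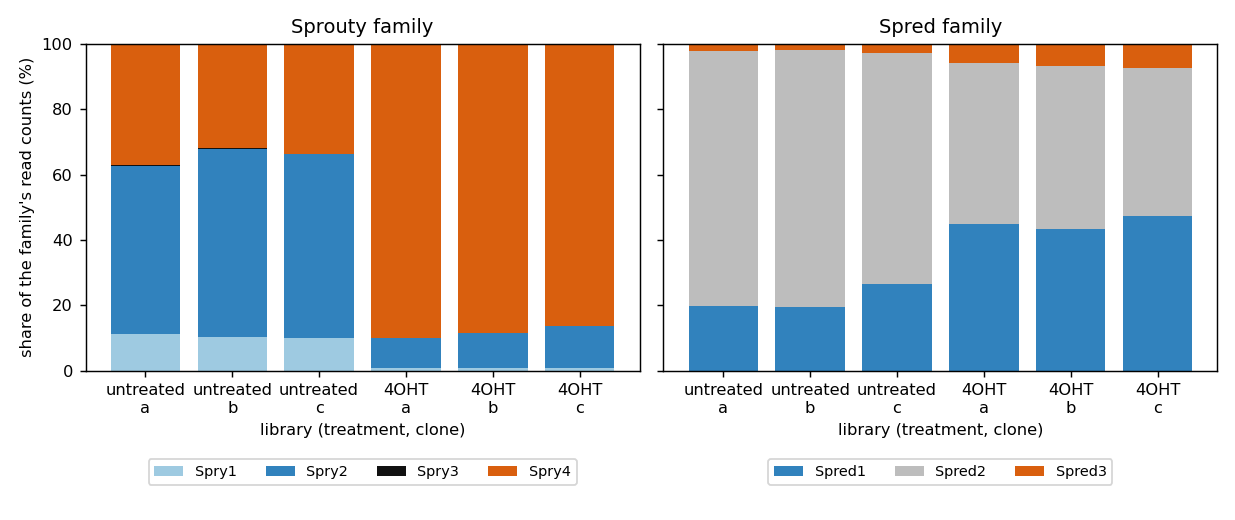
Share of the family's read counts (%) held by each Sprouty gene (left) and each Spred gene (right) in the 6 libraries, as stacked bars. Spry4 makes up 34.1% of Sprouty reads on average in untreated and 88.3% in treated libraries, and Spred1 22.0% and 45.1% of Spred reads.

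Spred1, whose loss in people causes Legius syndrome, was read at 55.6, 53.7 and 65.6 CPM without and at 215, 207 and 214 CPM with 4OHT, in the order of clones a, b and c. The treated libraries lay close together and clear of the untreated ones. The log2 fold change was 1.87 ± 0.08 (edgeR adjusted p = 7.2e-08), 3.64-fold. The nearest patterns were those of the transcription factors Plagl1 and Bach2 and of the neurotrophin receptor Ngfr, at distances of 0.160, 0.193 and 0.203.

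Spred3, the least read of the Spred genes, rose from 5.93, 4.93 and 6.86 CPM to 27.4, 31.4 and 34.1 CPM in clones a, b and c. The groups did not overlap, and the log2 fold change of 2.40 ± 0.14 (edgeR adjusted p = 5.7e-07) was the largest of the Spred family at 5.26-fold. It rests on 209 counts untreated and 727 after 4OHT. Spred3 shares 202 bases with Ggn, a germ cell gene on the other strand. Ggn had 58 to 76 counts untreated and 66 to 95 after 4OHT, and rose by 0.84 on the log2 scale (edgeR adjusted p = 0.00099). The nearest patterns to Spred3 were those of Plxnd1, the cytokine Tgfb1 and the receptor Tgfbr2, at distances of 0.232, 0.251 and 0.275.

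Spred2, a family member that is widely expressed, was read at 219, 218 and 174 CPM untreated and at 238, 238 and 206 CPM after 4OHT. The groups overlapped because clone c lay below the other clones in both, and the log2 fold change was 0.16 ± 0.10 (edgeR adjusted p = 0.18). With clone as a block it passed (0.16 ± 0.04, edgeR adjusted p = 0.0028; DESeq2 0.16, adjusted p = 0.038). Scaled by library size alone, its value turned to -0.04. Spred reads in all rose from 268 ± 18.6 to 470 ± 13.9 CPM, 1.76 times. Spred2 held 75.8% ± 4.52 of them untreated and 48.3% ± 2.57 after 4OHT, Spred1 22.0% ± 4.03 and 45.1% ± 1.90, and Spred3 2.23% ± 0.510 and 6.60% ± 0.892 (SD, n = 3).

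Il17rd, which encodes SEF, was read at 83.3, 77.2 and 78.8 CPM without and at 125, 107 and 102 CPM with 4OHT. The groups did not overlap, but the log2 fold change was the smallest among the genes that rose, 0.49 ± 0.08 (edgeR adjusted p = 0.00059), 1.40-fold. By library size alone it was 0.29 (edgeR adjusted p = 0.013, 1.9e-07 to 0.017 over the alternatives). Its nearest patterns were those of the kinase Map3k1 and of Msantd2 and Brwd3, at distances of 0.0806, 0.0947 and 0.101.

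Phlda1 had the largest fold change of the tested inhibitors, from the lowest untreated CPM among them, not scaled for gene length. It stood at 1.28, 1.06 and 4.31 CPM in the untreated libraries, on 16, 14 and 44 counts, and at 108, 87.1 and 138 CPM in the treated ones. Clone c was the highest in both groups, and every treated library was far above every untreated one. The log2 fold change was 5.72 ± 0.32 (edgeR adjusted p = 3.7e-07), which was rank 14 among all tested genes. Over the alternatives it ran from 5.36 to 6.53. The genes nearest in pattern were Cavin1, Egr1 and Nab2, but at larger distances than for the other genes, 0.871, 1.05 and 1.10. The span of Phlda1 on chromosome 10 (111506286 to 111508645) holds Gm28592, a non-coding RNA on the other strand that the count table does not list. Gm28592 covers 1088 of the 2360 bases. Since counts appear to cover both strands, its reads may be counted as Phlda1, which was not tested.

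Levels of different genes were compared per kilobase of gene span, since the table appears to count whole spans. Untreated, Spry2 was the highest at 13.1 ± 2.43 CPM per kb, followed by Spry1 at 2.61 ± 0.307 and Spry4 at 2.61 ± 0.416, whose ranges overlapped. Spred2 at 2.04 ± 0.257 and Il17rd at 1.17 ± 0.0461 came next, and their ranges did not overlap each other. Spred1 at 0.957 ± 0.104, Phlda1 at 0.940 ± 0.769 and Spred3 at 0.510 ± 0.0832 followed. Phlda1 ranged from 0.450 to 1.83, which overlapped Spred2, Il17rd, Spred1 and Spred3, so its place among them is not settled. After 4OHT, Spry4 led at 92.7 ± 14.1 CPM per kb, followed by Phlda1 at 47.0 ± 10.9 and Spry2 at 35.4 ± 1.66, whose ranges overlapped. Spred1 at 3.48 ± 0.0723 came next, then Spred3 at 2.67 ± 0.289, Spry1 at 2.47 ± 0.232 and Spred2 at 2.28 ± 0.186, of which neighbours overlapped. Il17rd at 1.63 ± 0.172 was below these, and Spry3 was the lowest in both groups (0.0601 ± 0.0293 and 0.0432 ± 0.0184). The order depends on this choice of length. Per length of exons alone, Spred2 would lead in untreated cells, ahead of Spry2 at 30.7 CPM per kb, Spred1 would be at rank 3 and Spry1 at rank 6. After 4OHT, Spry2 would pass Phlda1, and Spry1 would be at rank 8. Spry1 shares 710 bases of its span with Gm42922, which had 4 counts in all, so its level per length may be understated.

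The size of the measured response varied among clones. The ratio of treated to untreated CPM of Spry4 was 42.1 in clone a (95% counting interval 38.4 to 46.1), 40.1 in clone b (36.4 to 44.2) and 26.8 in clone c (24.4 to 29.4). That of Phlda1 was 83.9 (51.4 to 147), 82.0 (48.5 to 151) and 32.1 (23.7 to 44.5). For Spry2 the ratios were 3.15, 2.72 and 2.35, and for Spred1 3.86, 3.85 and 3.27. In 5 of the 6 genes that rose the smallest rise was in clone c, the exception being Spred3. How many of all higher genes had their smallest rise in clone c was not counted. For Spry2 and Phlda1 clone c was the highest in both groups, at 77.1 and 4.31 CPM untreated and 181 and 138 CPM after 4OHT. With 1 pair of libraries per clone the difference in response was not tested, and the intervals cover counting error only. Over all 3953 higher genes the median log2 fold change was 0.55 in clones a and b and 0.52 in clone c.

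**Figure D3:**
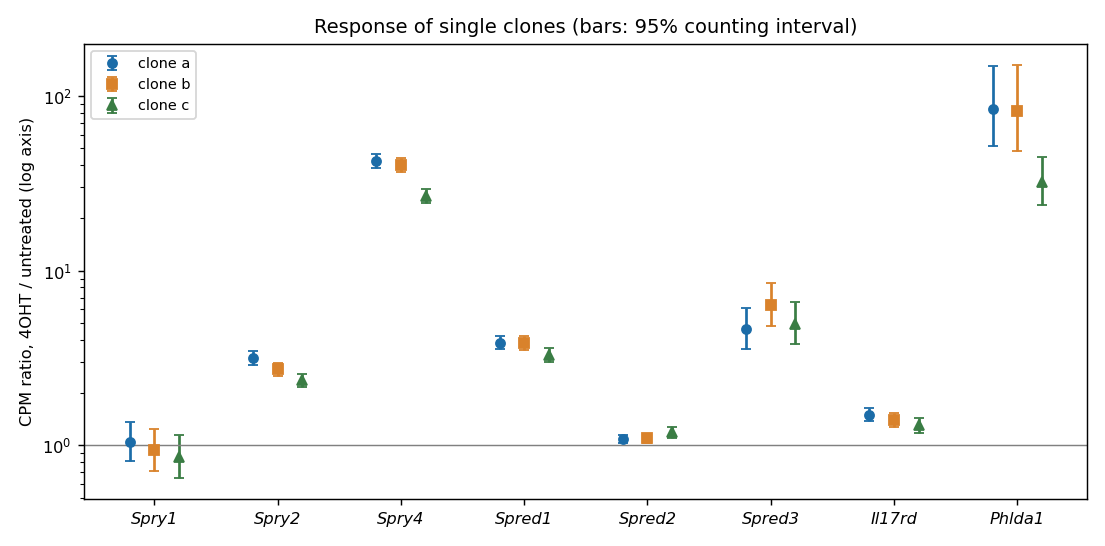
Ratio of treated to untreated CPM (log axis) for each tested gene in clones a, b and c, with 95% counting intervals. The intervals of clone c lie below those of clones a and b for Spry4 and Phlda1, while those of Spry1 include 1 in all 3 clones and those of Spred2 lie just above 1.

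Whether the clones differed in level was tested with terms for clone added to the treatment term. This called 3 of the 8 genes, where 12.6% of all tested genes were called (edgeR adjusted p below 0.05). Phlda1 was 0.45 higher in clone c than in a on the log2 scale and -0.30 in clone b (edgeR adjusted p = 0.0018). Spred2 was at -0.27 in clone c against a (edgeR adjusted p = 0.0022), and Spry2 at 0.27 (edgeR adjusted p = 0.044). With the DESeq2 likelihood ratio test 1 of the 3, Spred2, was called (adjusted p = 0.020).

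The genes around these inhibitors were followed in 6 lists, whose counts stand beside the 28.5% of all tested genes that were higher and the 28.6% that were lower. The lists were chosen with earlier results of these data known, so their counts are descriptive only. In a list of ERK-responsive transcription factors 17 of 20 were higher and 0 lower by edgeR, with a median log2 fold change of 1.98. They were led by Fos, Egr2, Egr1 and Egr3 (4.98, 5.14, 5.86 and 9.12). Egr3 had 6 counts untreated and 2356 after 4OHT. Its untreated mean of 0.183 ± 0.181 CPM was below the level of 3 counts, so the size of its fold change is uncertain. At an unadjusted p below 0.05 0 of the 20 were lower, and none was by DESeq2 or limma-voom, while 2 were by library size. Cic, which encodes Capicua, did not pass the test (-0.14 ± 0.07, edgeR adjusted p = 0.12; 0.034 with clone as a block), nor did Elk1 and Elk3 (-0.25 and -0.01). Elk1 shares 8887 bases of its span with Uxt, and Elk3 19658 bases with Cdk17. Among other brakes on the pathway 10 of 18 were higher and 4 lower, or 9 and 8 with library sizes alone. Without both libraries of clone a 2 were lower, and 4 of 18 is below the share of lower genes over all tested. The median log2 fold change was 0.44. The ERK phosphatases Dusp6, Dusp5 and Dusp4 rose by 2.14, 3.80 and 2.90. Those that fell were Lrig3 (-1.77) and Lrig1 (-0.91), which damp receptors, and the phosphatases Dusp9 (-0.47) and Dusp7 (-0.69).

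Of 14 tested partners that Sprouty or Spred proteins are known to bind or act on, 8 were higher and 1 lower (median 0.28). Library sizes alone gave 5 and 4. Clone as a block gave 9 and 3 in edgeR, adding Cblb and Tesk1 to those lower and Ptpn11 to those higher, and 8 and 1 in DESeq2. Siah2, a ubiquitin ligase for Sprouty proteins, rose from 5.41 ± 0.321 to 21.8 ± 3.19 CPM (2.01 ± 0.15). Cbl, a ubiquitin ligase that Sprouty proteins bind, rose by 0.62 and Nf1, the neurofibromin gene that Spred proteins act through, by 0.76. The 1 that fell was the receptor gene Kit (-1.21 ± 0.19). In the FGF receptor to ERK cascade 15 of 23 were higher and 3 lower (median 0.34), and with library sizes alone 10 and 5. Braf (1.28), Nras (0.74) and Sos2 (1.25) rose, and the ligand gene Fgf4 (-2.47), the scaffold gene Ksr1 (-1.29) and Fgfr1 (-0.33) fell. Braf shares part of its span with Ndufb2. Fgfr2, among the 15 at 0.34, has a listed span that takes in many other genes, such as Ate1 and Bub3 at 0 counts. Its value, which is also the median of the list, may thus not be that of Fgfr2 alone.

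Of the 6 tested relatives of Phlda1 and Il17rd, 2 were higher and 4 lower (median -0.56), beside 28.5% and 28.6% of all tested genes. Without both libraries of clone b 1 was lower. Phlda2, an imprinted gene known for restraining placental growth, rose from 1.59 ± 1.11 to 52.0 ± 2.21 CPM (5.09 ± 0.25), near the rise of Phlda1, whereas Phlda3, a p53 target that inhibits AKT, fell (-0.89 ± 0.12). Of the IL-17 receptor genes, Il17ra rose (0.67) and Il17re (-1.86) and Il17rc (-0.71) fell, the former on 51 and 9 counts, as did the adaptor gene Traf3ip2 (-0.40). Of 7 tested genes that share the EVH1 domain with Spred proteins, 3 were higher and 0 lower by edgeR, with 0 lower at an unadjusted p below 0.05 and 0 by DESeq2 and limma-voom. Over all tested genes 28.5% were higher and 28.6% lower. With clone as a block 5 were higher in edgeR, Homer2 and Enah being added, and 4 in DESeq2, while library sizes alone gave 2. Without both libraries of clone c 5 were higher. The 3 that were higher in the main fit on all libraries were the actin regulators Vasp (1.64 ± 0.06) and Wasl (0.51) and the scaffold gene Homer1 (0.42). The median of the 7 was 0.36.

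**Figure D4:**
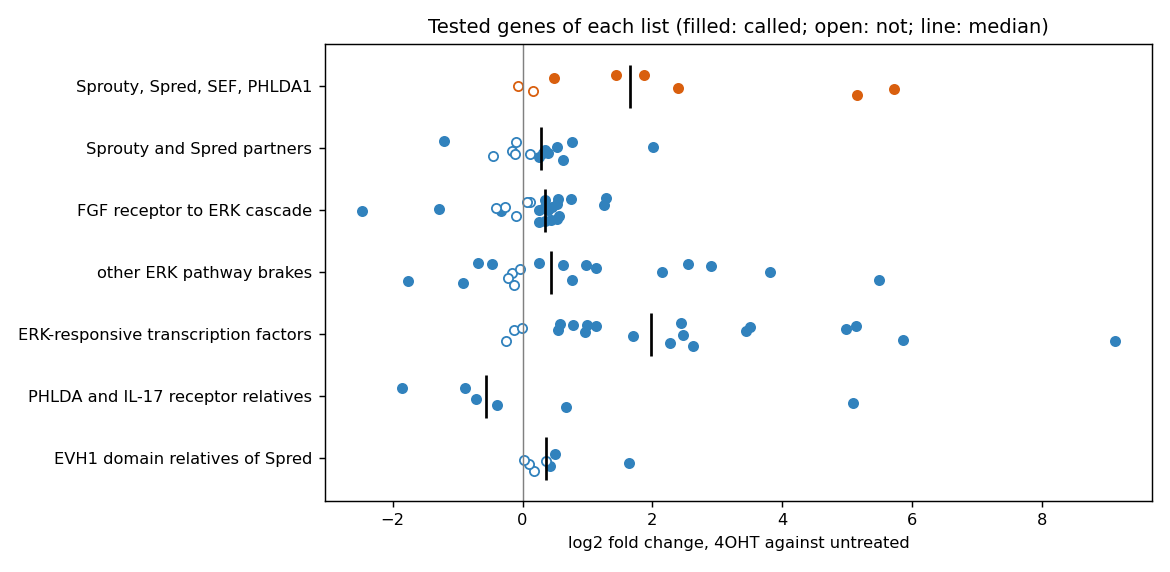
Log2 fold change (4OHT against untreated, horizontal axis) of each tested gene, with 1 row for the inhibitors and 1 for each list, filled where the gene was called and open where not, and a line at each median. The inhibitors have a median of 1.65, near the 1.98 of the transcription factors, and the cascade has one of 0.34.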

How the data were processed

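The authors deposited 1 table of raw counts, whole-number reads per gene symbol. STAR, featureCounts and the mm10 build are named in the submitters' processing notes, while their versions, annotation and settings were not given in the sources used here. Of 334 coding genes wholly within an intron of a coding gene on the other strand, 332 had no count in any library (181 of 182 on the same strand), against 14.2% of coding genes that overlap none. Counts were therefore read as covering whole gene spans on both strands, with genes inside another getting none. Positions are from GENCODE M21 (GRCm38).

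Differential tests on the counts used edgeR 4.0.16 under R 4.3.3 (filterByExpr with minimum count 10 and total 15, TMM, glmQLFit and glmQLFTest, 3 against 3 libraries, no clone term), with Benjamini-Hochberg adjustment over 13869 genes. Each SE was taken as log2 fold change over root F. Patterns were compared on log2 CPM with prior count 2. Left out as neighbours were the inhibitors and names with Gm and a digit, with Rik, or with a capital A to D and 4 or more digits. Alternatives included limma-voom 3.58.1 and DESeq2 1.42.0. The fit was tested on simulated data. Counting intervals are exact and cover counting error only. Nothing says that clones were cultured separately in time, so p-values speak of the spread among these libraries, which may be technical. Libraries were taken as paired by clone in the block fits and the ratios per clone, because the labels give the clone of each. Their deviations from the group mean had correlations of 0.282 (clone a), 0.165 (clone b) and 0.357 (clone c). All 9 genes are named, with up to 4 genes of smallest adjusted p per list, those that small counts call for and the 3 genes nearest in pattern (Euclidean distance over 6 libraries). The genes and lists were chosen with earlier results of these data known.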

Additional observations from a re-analysis of the deposited data

Results flagged for a closer look

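Spry1 is listed because the sign of its response differed between clones: its log2 fold change was 0.065 in clone a, -0.088 in clone b and -0.21 in clone c. The counting interval of each ratio includes 1, and the difference between clones was not tested.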

How the results depend on the processing

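The 6 inhibitors that rose kept their direction and their call under all 18 other fits, and no fit called any of the 8 lower. Spred2 passed the test with clone as a replicate block (0.16 in edgeR, 0.16 in DESeq2) and turned to -0.041 by library size alone, which shifts all log2 fold changes by a median of -0.20. Spry1 turned sign in 2 fits that left out 1 library (0.00063 and 0.0035). It ran from -0.15 to 0.0035 over all fits with libraries left out and reached -0.27 by library size alone. Among all genes, 2407 were higher by library size alone, and 947 higher and 1324 lower with a log2 fold change of at least 1 in size, when 5 of the inhibitors were called. The block changed no other call among the 8. The clone terms were called in 1 of the 8 by DESeq2, against 3. Of 216 counts per list and direction under the alternatives, 20 moved by over 1.5 times. The partners were 5 higher and 4 lower by library size, and 3 lower with the edgeR block, which also gave 5 higher EVH1 genes and 1 lower transcription factor. With libraries left out, lower partners numbered up to 3 and lower transcription factors up to 1. The causes were not tested. Depth limits Spry3 and the untreated level of Phlda1.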
